A study of Homo sapiens with 6 samples.

Results

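The transcription factors that mark the luminal and basal layers of the bladder lining, together with the cell surface receptor CD44, were followed in T24 cells after knockdown of the circular RNA circ235. The set held 9 of the 58288 genes in the count table and was taken by name: GATA3, PPARG, RXRA, FOXA1, ELF3, KLF5 and GRHL2 as luminal or epithelial factors, TP63 as the basal factor, and CD44. T24 is an established human bladder cancer cell line. The cells were transfected with a control siRNA (NC) or with 1 of 2 siRNAs directed against the back-splice site of circ235 (si-circ235-1 and si-circ235-2), so every group went through the same transfection. Each condition had 2 libraries that the labels describe as biological replicates of this single line. Polyadenylated RNA was sequenced without strand information. A circle has no poly(A) tail and the table lists genes only, so circ235 has no value here and the knockdown could not be checked from these counts.

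The bladder lining is a layered epithelium whose basal cells carry p63 (TP63) and CD44 and whose surface cells, the luminal umbrella cells, make uroplakins. GATA3, FOXA1 and the nuclear receptor PPARγ, which binds DNA as a pair with a retinoid X receptor such as RXRα, drive the luminal programme, and ELF3, KLF5 and GRHL2 act with them in epithelial differentiation. CD44 binds hyaluronan, is shed by membrane proteases and is tied to the cytoskeleton by ezrin, radixin and moesin.

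The libraries held 15373992 to 19912893 counts. Replicate libraries were not copies of each other (chi-square over genes divided by its degrees of freedom, 23.5 to 35.4). The p-values rest on the spread between 2 libraries per condition, estimated in a fit that all conditions share and that draws on the other genes. Levels are given as counts and as CPM, counts scaled to a common library size with TMM factors. Tests are edgeR's quasi-likelihood tests over 14415 genes, and a gene is called where its Benjamini-Hochberg adjusted p is under 0.05. The siRNA comparisons share the same NC libraries. Markers of other cell types were near 0 in this line: 5 of 10 leukocyte markers (PTPRC among them), 2 of 8 endothelial and 5 of 10 fibroblast markers had no count in any library. The summed leukocyte markers reached 3.48 to 3.80 CPM in NC, 11.0 to 11.4 CPM under si-circ235-1 and 2.49 to 3.66 CPM under si-circ235-2. The marker that set si-circ235-1 apart was CD14, the lipopolysaccharide co-receptor, with 43 and 47 counts in NC, 157 and 178 under si-circ235-1 and 36 and 36 under si-circ235-2, and its part in the results below was not tested. PTPRC and CD14 were named after their values were seen. The endothelial markers summed to at most 2.79 CPM and the fibroblast markers to at most 2.66 CPM in any library.

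The study linked circ235 to the microRNA miR-330-5p, and CD44 was the only detected member whose 3′ UTR matched that microRNA's seed. The mature sequence (RefSeq, GRCh38.p14, chr19:45639049-45639070, minus strand) is given with its seed, bases 2 to 8, in capitals, followed by the 3 places in the CD44 3′ UTR that pair with it. They are shown because they are the link between the microRNA and a member, and their capitals mark the bases complementary to the seed.
miR-330-5p: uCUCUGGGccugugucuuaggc
CD44 match to bases 2 to 8 (chr11:35231248-35231269, plus strand): gcctcttgttttCCCAGAGatt
CD44 match to bases 2 to 7 (chr11:35231268-35231289, plus strand): tttcctgggtctgCCAGAGgcc
CD44 match to bases 2 to 7 (chr11:35231403-35231424, plus strand): acaagtctcatagCCAGAGatg

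The words searched were CCCAGAG for bases 2 to 8 and CCAGAG for bases 2 to 7, on the transcribed strand, and every match to the longer word is also one to the shorter. They start at bases 1927, 1948 and 2083 of a CD44 3′ UTR of 3069 nt (GENCODE 29, GRCh38). Of 12146 tested genes with an annotated 3′ UTR, 20.5% held the longer word and 43.6% the shorter. Among the 1629 tested genes with a 3′ UTR within 20% of the CD44 length the shares were 30.6% and 62.1%, so a UTR of this length often holds such a word. GRHL2 held 1 longer and 3 shorter matches, counting the longer among them, but it was not detected. In the 3′ UTRs of ELF3, PPARG, TP63, RXRA, GATA3, KLF5 and FOXA1, which ran from 301 nt for PPARG to 2777 nt for TP63, these letters were not found. A match is a description of the sequence and not evidence of binding.

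T24 cells carried CD44, RXRA, PPARG and ELF3 at moderate to high level, KLF5 and FOXA1 at low level, almost no GATA3, and no detectable TP63 or GRHL2. To compare genes, levels were divided by the length of their exons (RPKM) and averaged over the 2 NC libraries. CD44 (GRCh38, chr11:35138870-35232402, plus strand) was at 75.5 ± 3.26 RPKM (SD, n = 2), above 95.4% of all genes tested. RXRA (chr9:134317098-134440585, plus strand) was at 7.17 ± 0.10 RPKM and PPARG (chr3:12287368-12434356, plus strand) at 5.05 ± 0.085 RPKM. ELF3 (chr1:202007945-202017188, plus strand), an ETS factor of epithelial cells, was at 3.45 ± 0.31 RPKM, above 50.03% of tested genes. CD44 stood far above the best expressed factor, RXRA, and RXRA and PPARG above the middle of the tested genes.

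Below them came the zinc finger factor KLF5 (chr13:73054976-73077542, plus strand) at 1.77 ± 0.31 RPKM and the pioneer factor FOXA1 (chr14:37589984-37596059, minus strand) at 0.463 ± 0.091 RPKM. GATA3 (chr10:8045378-8075203, plus strand) was at 0.134 ± 0.163 RPKM, above 4.09% of tested genes. The ranges of neighbouring members over the NC libraries did not overlap anywhere in this order, which was the same when the longest transcript replaced the union of exons. Under both siRNAs PPARG and RXRA changed places. PPARG was at 9.42 ± 1.00 RPKM and RXRA at 8.04 ± 1.12 RPKM under si-circ235-1, where their ranges overlapped. Under si-circ235-2 PPARG was at 11.1 ± 0.29 RPKM and RXRA at 7.63 ± 0.39 RPKM, without overlap. ELF3 and KLF5 came close together under si-circ235-2, at 2.86 ± 0.15 and 2.63 ± 0.13 RPKM, and kept their order.

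**Figure D1:**
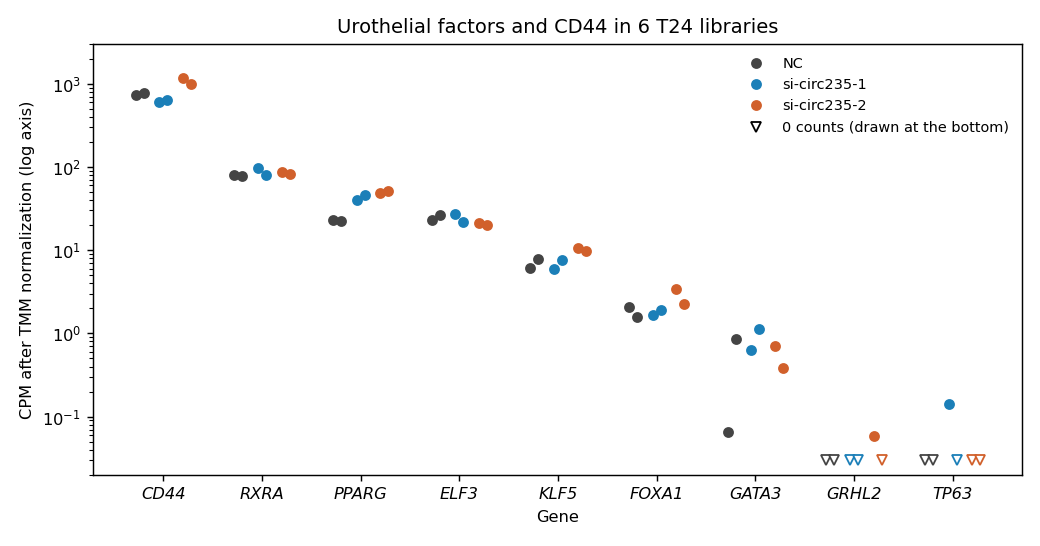
Level of each of the 9 genes in every library, in CPM after TMM scaling on a log axis. Each point is 1 library, coloured by condition, and open triangles at the bottom mark 0 counts. CD44 lies highest, GATA3 is near the detection limit, and GRHL2 and TP63 are at 0 in 5 of 6 libraries each.

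TP63 and GRHL2 were not detectable at this depth and are the 2 members absent from these T24 libraries. TP63 (chr3:189631416-189897279, plus strand), the master factor of basal cells, had 0 counts in both NC libraries, 2 and 0 under si-circ235-1 and 0 in both libraries of si-circ235-2. GRHL2, on chromosome 8, an activator of epithelial adhesion genes, had 0 counts in 5 libraries and 1 count in the first si-circ235-2 library. A member at 3 counts or fewer in every library was taken as absent, a chosen limit that corresponds to 0.143 to 0.210 CPM. Lower levels of TP63 and GRHL2 are therefore not excluded. Both failed the filter on low counts, were not tested, and also stayed under 1 CPM in every library. GATA3 passed that filter narrowly, with 1 and 14 counts in NC, 9 and 20 under si-circ235-1 and 12 and 8 under si-circ235-2. The NC libraries were far apart and the conditions overlapped.

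Defining markers of the luminal and basal layers were also partly missing. Of 17 uroplakin and umbrella cell genes, 8 had no count in any library, including UPK3A and KRT20, and 4 reached the level needed for a test. Of 25 luminal epithelial genes 7 had no count, and 13 were tested. Simple epithelial keratins were abundant, KRT18 having 32717 and 23139 counts in NC, while CDH1, the epithelial cadherin that GRHL2 activates, had 4 and 3. Of 25 basal genes 5 had no count and 14 were tested. The basal keratins KRT5 and KRT14 had no count in NC, but the basal marker and cell cycle inhibitor SFN had 19519 and 12406. UPK3A, KRT20, CDH1, KRT5 and KRT14 were named here after their values were seen.

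Both siRNAs were compared with NC to see which of these genes moved when circ235 was targeted. PPARG rose under each of them. It had 353 and 370 counts in NC, 565 and 823 under si-circ235-1, and 834 and 1069 under si-circ235-2. In CPM these were 23.2 and 22.6 in NC, 39.5 and 45.9 under si-circ235-1, and 49.2 and 51.1 under si-circ235-2. All 4 knockdown libraries lay above both NC libraries, and the 3 conditions did not overlap. With 2 libraries per condition this was common between any 2 conditions. Of all tested genes, 55.0% did not overlap between si-circ235-1 and NC, 71.4% between si-circ235-2 and NC, and 72.1% between the siRNAs.

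The PPARG log2 fold change was 0.90 under si-circ235-1 (95% interval 0.48 to 1.32, adjusted p = 0.0264, edgeR), a ratio of 1.87. Under si-circ235-2 it was 1.13 (95% interval 0.71 to 1.55, adjusted p = 0.0031, edgeR), a ratio of 2.19. PPARG was the only member called in either comparison, 1 of 7 tested in each. Of all genes tested, 5.88% were called under si-circ235-1 (2.24% higher and 3.64% lower) and 31.4% under si-circ235-2 (15.7% higher and 15.7% lower), so the members as a set did not stand out by their number of calls. Under si-circ235-2 the call held in all 12 alternative analyses. Under si-circ235-1 the direction held in all 12 and the call in 7; it was lost without TMM factors (adjusted p = 0.0512, edgeR) and when either NC library (0.110 and 0.106) or either si-circ235-1 library (0.0528 and 0.205) was left out.

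PPARG was also compared with RXRA inside each library, a ratio that needs no scaling between libraries. PPARG counts divided by RXRA counts were 0.288 and 0.287 in NC, 0.404 and 0.572 under si-circ235-1, and 0.561 and 0.627 under si-circ235-2. The ratio was higher in all 4 knockdown libraries. It does not correct for base composition, and the longest transcript has 44.0% GC for PPARG and 60.6% for RXRA. After each library was corrected for length and GC content, PPARG was at 0.77 and RXRA at 0.37 under si-circ235-1 against NC (log2). Under si-circ235-2 they were at 1.19 and 0.05. Between the siRNAs PPARG differed by 0.23 on the log2 scale (95% interval -0.18 to 0.64, adjusted p = 0.352, edgeR), an interval that includes differences in either direction. The value was called without TMM factors (0.57, adjusted p = 0.0473, edgeR) and with the trend over transcript length and GC content removed (0.42, adjusted p = 0.0380, edgeR).

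CD44 lay below NC in both si-circ235-1 libraries and above NC in both si-circ235-2 libraries. It had 11156 and 12728 counts in NC, 8507 and 11517 under si-circ235-1, and 19740 and 20789 under si-circ235-2. The levels were 732 and 778 CPM in NC, 595 and 643 CPM under si-circ235-1, and 1165 and 994 CPM under si-circ235-2. The conditions did not overlap, where 55.0% to 72.1% of all tested genes did not overlap between 2 conditions.

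Against NC neither CD44 difference was called. The log2 fold change was -0.29 under si-circ235-1 (95% interval -0.74 to 0.17, adjusted p = 0.420, edgeR) and 0.52 under si-circ235-2 (95% interval 0.06 to 0.97, adjusted p = 0.0784, edgeR). The difference between si-circ235-2 and si-circ235-1 was called, at 0.80 (95% interval 0.35 to 1.26, adjusted p = 0.0111, edgeR), a ratio of 1.74. CD44 was the only one of 7 members called there, where 39.7% of all genes tested were (21.1% higher and 18.6% lower). Relative to RXRA within each library, CD44 counts were 9.11 and 9.88 times as many in NC, 6.08 and 7.998 under si-circ235-1 and 13.3 and 12.2 under si-circ235-2, again without overlap between conditions. This ratio does not correct for base composition, and the longest transcript has 45.3% GC for CD44 and 60.6% for RXRA. After each library was corrected for length and GC content, CD44 was at -0.10 and RXRA at 0.05 under si-circ235-2 against NC. There CD44 no longer rose relative to RXRA. Under si-circ235-1 they were at -0.39 and 0.37, the same direction as the ratio.

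The CD44 values differed with the treatment of transcript length and base composition. Its longest transcript has 5732 nt and 45.3% GC, while the medians over tested genes were 3354 nt and 48.4%. With a smooth trend over length and GC content removed from each library, CD44 stood at -0.10 under si-circ235-2 against NC (adjusted p = 0.640, edgeR), a change of sign, and at 0.29 between the siRNAs (adjusted p = 0.131, edgeR). Without TMM factors the difference from NC under si-circ235-2 was 0.76 (adjusted p = 0.0108, edgeR), and DESeq2 called it too at 0.50 (adjusted p = 0.0239). The call between the siRNAs was also lost when the first or second si-circ235-1 library (0.0809 and 0.0676) or the first si-circ235-2 library (0.0668) was left out. Counts per gene do not separate the standard from the variant forms of CD44, and the opposite-strand gene CD44-AS1, which shares 84 nt of exon with it, had at most 16 counts.

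**Figure D2:**
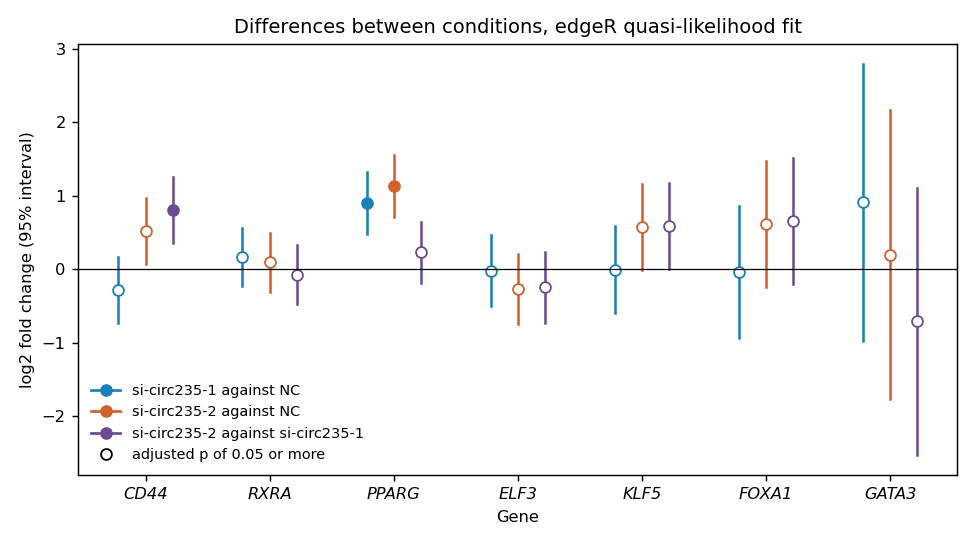
Log2 fold changes of the 7 tested members with 95% intervals from edgeR, for each siRNA against NC and for si-circ235-2 against si-circ235-1. Filled points have an adjusted p under 0.05, which holds for PPARG against NC under both siRNAs and for CD44 between the siRNAs.

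RXRA, the partner of PPARγ, had 1224 and 1288 counts in NC, 1399 and 1440 under si-circ235-1, and 1486 and 1705 under si-circ235-2. In CPM this was 80.3 and 78.7 in NC, 97.9 and 80.4 under si-circ235-1 and 87.7 and 81.5 under si-circ235-2. The second si-circ235-1 library lay within 0.1 CPM of the first NC library. The log2 differences from NC were 0.16 (95% interval -0.23 to 0.56, adjusted p = 0.616, edgeR) and 0.09 (95% interval -0.31 to 0.49, adjusted p = 0.741, edgeR). These intervals bound a change of RXRA well under the size seen for PPARG under si-circ235-2, but do not show that it was unaltered.

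ELF3 gave 354 and 432 counts in NC, 386 and 393 under si-circ235-1, and 362 and 415 under si-circ235-2. Its CPM values of 23.2 and 26.4 in NC overlapped those under si-circ235-1 (27.0 and 21.9) and lay above those under si-circ235-2 (21.4 and 19.8). The log2 difference was -0.02 under si-circ235-1 and -0.27 under si-circ235-2 (95% interval -0.75 to 0.21, adjusted p = 0.375, edgeR). The antisense gene ELF3-AS1 shares 664 nt of exon with ELF3 and had 4 to 27 counts, and without strand information its reads cannot be told apart from those of ELF3. Between the siRNAs ELF3 differed by -0.25 (adjusted p = 0.391, edgeR), which became -0.61 with the length and GC trend removed (adjusted p = 0.0142, edgeR) and 0.086 without TMM factors.

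KLF5 and FOXA1 had their highest values under si-circ235-2 without being called. KLF5 had 92 and 127 counts in NC, 86 and 137 under si-circ235-1, and 180 and 207 under si-circ235-2. FOXA1 had 32 and 26 counts in NC, 24 and 34 under si-circ235-1, and 58 and 47 under si-circ235-2. For both genes the si-circ235-2 libraries lay above all others in CPM, at 10.6 and 9.89 for KLF5 and 3.42 and 2.25 for FOXA1, and NC and si-circ235-1 overlapped.

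The KLF5 log2 difference from NC under si-circ235-2 was 0.57 (95% interval -0.01 to 1.15, adjusted p = 0.123, edgeR) and that of FOXA1 0.61 (95% interval -0.25 to 1.48, adjusted p = 0.255, edgeR). Under si-circ235-1 they were -0.01 and -0.04, with adjusted p of 0.986 and 0.968 (edgeR). Between the siRNAs KLF5 differed by 0.58 (adjusted p = 0.103, edgeR), a difference called without TMM factors only (0.92, adjusted p = 0.0282, edgeR), and FOXA1 by 0.65 (adjusted p = 0.207, edgeR). Removal of the trend over length and GC content put KLF5 at 0.21 under si-circ235-2 (adjusted p = 0.528, edgeR) and at 0.23 between the siRNAs (adjusted p = 0.437, edgeR). With 1 library left out at a time FOXA1 ran from 0.28 to 0.89 under si-circ235-2 and from 0.32 to 0.93 between the siRNAs. For GATA3 the log2 differences from NC were 0.91 (95% interval -0.98 to 2.80) and 0.19 (95% interval -1.77 to 2.16), with adjusted p of 0.555 and 0.892 (edgeR), intervals too wide to say more than that no difference was detectable at this depth.

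Among the 7 tested members the median log2 difference was -0.01 under si-circ235-1 and 0.52 under si-circ235-2, beside -0.03 and -0.00 over all genes tested. The second median was 0.17 with the length and GC trend removed and 0.76 without TMM factors, beside 0.0056 and 0.25 over all genes. Of these, 6 had a log2 difference above 0 under si-circ235-2, and ELF3 was below it; with the length and GC trend removed CD44 was below it too. The CPM ranges did not overlap with NC in 3 of 7 members under si-circ235-1 and in 6 of 7 under si-circ235-2, where 55.0% and 71.4% of all tested genes did not overlap. Between the siRNAs it was 5 of 7 members and 72.1% of all tested genes. With both siRNAs taken as 1 group of 4 libraries against NC, no member was called by edgeR, nor was any gene (0.0% of those tested). At an unadjusted p under 0.05 there were 1379 genes, or 9.57%, of which PPARG was the only member (log2 difference 1.02, unadjusted p = 0.0023, adjusted p = 0.467, edgeR); DESeq2 called PPARG in that comparison (adjusted p = 0.0028).

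Target genes of the PPAR receptors were called at a share near that of all genes tested. Of 24 such genes 16 were tested, and 1 of the 16 was called under si-circ235-1 (1 higher and 0 lower, beside 5.88% of all genes) and 5 of the 16 under si-circ235-2 (4 higher and 1 lower, beside 31.4%). Their median log2 difference was 0.17 and 0.16. ANGPTL4, a secreted inhibitor of lipoprotein lipase induced by PPARs and by hypoxia, went in opposite directions under the 2 siRNAs. It had 1319 and 1033 counts in NC, 2781 and 3035 under si-circ235-1 and 405 and 465 under si-circ235-2. The log2 fold changes were 1.28 (adjusted p = 0.0109, edgeR) and -1.70 (adjusted p = 0.00179, edgeR). The rise was not called without the second NC library (adjusted p = 0.0546, edgeR) or the second si-circ235-1 library (0.144), and the fall was called in all 12 alternatives. The mitochondrial fatty acid importer CPT1A rose under si-circ235-2, from 956 and 1139 to 2419 and 2904 counts (log2 1.09, adjusted p = 0.00387, edgeR), and had 1063 and 968 under si-circ235-1; without the first NC library its adjusted p was 0.0505 (edgeR). CPT2, the inner membrane enzyme of the same import step, was called there at 1.08 (adjusted p = 0.0444, edgeR) but in 6 of 12 alternatives only, with an adjusted p of 0.293 (edgeR) without the first NC library, 0.0668 and 0.0657 without either si-circ235-1 library and 0.0860 without the first si-circ235-2 library. HADHA, of mitochondrial β-oxidation, had the highest level per length of the list and differed from NC by -0.0063 under si-circ235-1 and -0.022 under si-circ235-2 on the log2 scale (adjusted p = 0.989 and 0.942, edgeR).

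Several partners and coregulators that RXRα and PPARγ use rose under si-circ235-2. Of 19 genes 17 were tested, and the test called 7 higher and 1 lower under si-circ235-2. That was 47.1% of the tested list, beside 31.4% of all genes (15.7% higher and 15.7% lower). The median log2 difference of the list was 0.81. Removal of the length and GC trend left 6 called higher and 0 lower, with a median of 0.36. The coactivator NCOA3 had 858 and 1121 counts in NC, 812 and 943 under si-circ235-1 and 4034 and 6148 under si-circ235-2 (log2 2.09, adjusted p = 0.00145, edgeR). The acetyltransferase EP300 (log2 1.66, adjusted p = 0.00179, edgeR) and the Mediator subunit MED1 (log2 1.23, adjusted p = 0.00423, edgeR) rose in the same comparison, the call for MED1 being lost with the trend removed or without the first NC library (adjusted p = 0.0548 and 0.0541, edgeR). Under si-circ235-1 the median was -0.43, and 1 of 17 was called, beside 5.88% of all genes. The only call was the retinoic acid receptor RARG, which fell (log2 -1.15, adjusted p = 0.0332, edgeR), from 319 and 350 counts to 165 and 136. That call was lost without either NC library (adjusted p = 0.123 and 0.126, edgeR) or the second si-circ235-1 library (0.247). The liver X receptor NR1H2, the best expressed of the list per length, was called lower under si-circ235-2 (log2 -0.56, adjusted p = 0.0414, edgeR), a call kept in 3 of 12 alternatives and in 1 of 6 with a library left out (adjusted p up to 0.254, edgeR, without the first NC library). With the trend removed NR1H2 was at -0.03 (adjusted p = 0.877, edgeR), and without TMM factors at -0.30 (adjusted p = 0.234, edgeR).

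**Figure D3:**
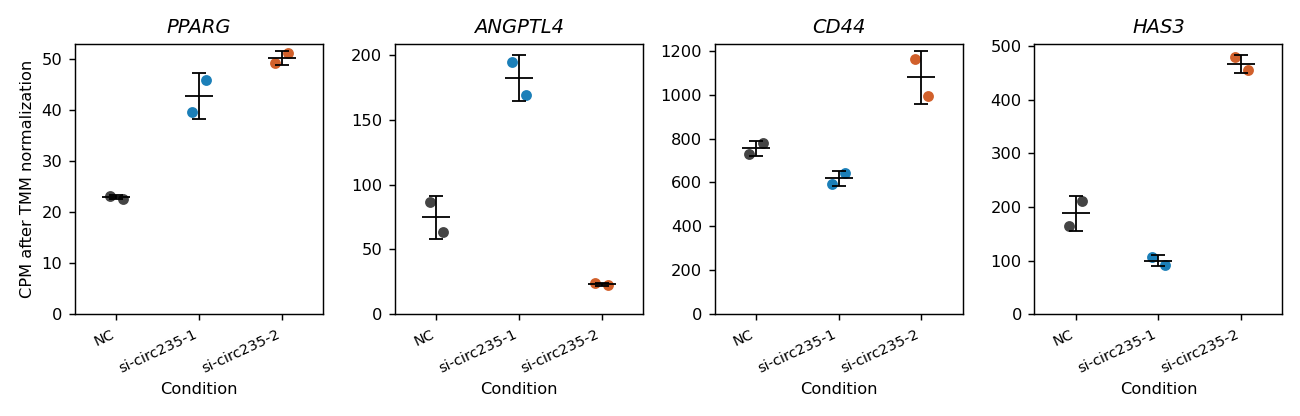
CPM after TMM scaling of PPARG, the PPAR target ANGPTL4, CD44 and the hyaluronan synthase HAS3 by condition. Points are libraries, and bars give the mean ± SD of 2 libraries. PPARG is above NC under both siRNAs, ANGPTL4 is highest under si-circ235-1 and lowest under si-circ235-2, and CD44 and HAS3 show the reverse order.

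Genes that make the CD44 ligand, shed the receptor or tie it to actin included several that rose under si-circ235-2. Of 25 genes 16 were tested, with 0 called higher and 1 lower under si-circ235-1, and 6 higher and 0 lower under si-circ235-2. Those were 6.25% and 37.5% of the tested list, beside 5.88% and 31.4% of all genes. Under si-circ235-2, 15.7% of all genes were called higher and 15.7% lower. The list's median log2 differences were -0.06 and 0.05. HAS3, the hyaluronan synthase of this line (HAS2, named after its values were seen, had no count), had 2511 and 3452 counts in NC, 1534 and 1656 under si-circ235-1, and 8126 and 9527 under si-circ235-2. All conditions were separate, as they were for CD44, where 55.0% to 72.1% of all tested genes were separate between 2 conditions. HAS3 fell under si-circ235-1 (log2 -0.91, adjusted p = 0.0281, edgeR) and rose under si-circ235-2 (log2 1.32, adjusted p = 0.00241, edgeR). Its rise was called in all 12 alternatives and its fall in 8, being lost without either NC library (adjusted p = 0.0610 and 0.156, edgeR) or either si-circ235-1 library (0.0709 and 0.237). Relative to RXRA within each library, HAS3 counts were 2.05 and 2.68 in NC, 1.10 and 1.15 under si-circ235-1 and 5.47 and 5.59 under si-circ235-2.

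The protease ADAM17, a sheddase of membrane proteins, had 17 and 43 counts in NC, 56 and 7 under si-circ235-1 and 217 and 305 under si-circ235-2 (log2 2.86, adjusted p = 0.0107, edgeR), with replicates far apart in the first 2 conditions and the call lost without the first NC library (adjusted p = 0.128, edgeR). TMEM2, a cell surface protein of hyaluronan turnover, rose from 65 and 122 to 386 and 482 counts (log2 1.96, adjusted p = 0.00242, edgeR). Ezrin (EZR), which links CD44 to actin and was the best expressed gene of the list per length, was at -0.04 under si-circ235-2 (adjusted p = 0.904, edgeR).

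Factors known to choose the variable exons of CD44 were nearly all expressed, 12 of 13 being tested. Under si-circ235-1, 1 was called higher and 0 lower, or 8.33% of the tested list, beside 5.88% of all genes. Under si-circ235-2, 1 was called higher and 1 lower, or 16.7%, beside 31.4% of all genes. RBFOX2 had 270 and 360 counts in NC, 891 and 1046 under si-circ235-1 and 625 and 722 under si-circ235-2. Its log2 fold changes were 1.603 (adjusted p = 0.00593, edgeR) and 0.85 (adjusted p = 0.0101, edgeR), and the second became 0.16 with the length and GC trend removed (adjusted p = 0.418, edgeR). The first call was lost without the second si-circ235-1 library (0.130) and the second without the first NC library (0.109). HNRNPM fell under si-circ235-2 (log2 -0.67, adjusted p = 0.0262, edgeR), a call lost without TMM factors (-0.42, adjusted p = 0.0836, edgeR), without the first NC library (0.160) and without the second si-circ235-2 library (0.198). HNRNPA1, the best expressed per length, was at -0.66 and -0.45 without a call.

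The paralogs of the members are factors that bind similar DNA, and 20 of 28 were tested. Under si-circ235-1 edgeR called 0 of them, beside 5.88% of all genes, and their median log2 difference was -0.22. DESeq2 called 2 there, and 6 had an unadjusted edgeR p under 0.05. Under si-circ235-2, 8 were called higher and 1 lower (median 0.52), or 45.0% of the tested list. Of all genes tested, 31.4% were called there (15.7% higher and 15.7% lower). Removal of the length and GC trend left 6 called higher and 0 lower, with a median of 0.38. The ETS factors related to ELF3, ELF1 (63 and 142 counts in NC, 354 and 485 under si-circ235-2, log2 1.78, adjusted p = 0.00414, edgeR) and ETS1 (942 and 1452 in NC, 3518 and 4525 under si-circ235-2, log2 1.49, adjusted p = 0.00182, edgeR), rose while ELF3 itself was at -0.27. Among relatives of KLF5, KLF6 had 1505 and 2120 counts in NC and 5164 and 6634 under si-circ235-2 (log2 1.45, adjusted p = 0.00179, edgeR), and KLF2 fell (log2 -1.45, adjusted p = 0.00507, edgeR), with the KLF2 call lost when the trend was removed or the first NC library left out (adjusted p = 0.0682 and 0.0510, edgeR).

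Luminal and basal genes outside the set were counted next. Under si-circ235-1, edgeR called 0 of 13 tested luminal genes, beside 5.88% of all genes (DESeq2 called 1, and 3 had an unadjusted edgeR p under 0.05). Under si-circ235-2 it called 5 of 13 (2 higher and 3 lower, beside 31.4% of all genes), the median log2 difference being -0.59. Without TMM factors 4 were called higher and 0 lower, so the calls on the lower side depended on the scaling. The luminal median was then -0.33, beside 0.25 over all genes tested. In the main analysis the median over all genes was -0.0038, so the luminal median lay below it under both scalings. The receptor ERBB3 rose (log2 0.93, adjusted p = 0.00461, edgeR), as did FGFR3 (log2 0.82, adjusted p = 0.0439, edgeR, called in 3 of 12 alternatives), and the tight junction gene CLDN4 fell (log2 -0.92, adjusted p = 0.0146, edgeR). Lower too were KRT7 (log2 -0.76, adjusted p = 0.0260, edgeR) and TBX2 (log2 -0.75, adjusted p = 0.0423, edgeR), which lay outside the naming rule. KRT18, the best expressed of the list, was at 0.36 and -0.74 without a call. With the trend removed the luminal median was 0.00, with 3 called higher and 2 lower. Under si-circ235-1 FGFR3 was at 0.60 and CLDN4 at -0.81 without a call (adjusted p = 0.215 and 0.0657, edgeR). Between the siRNAs FGFR3 differed by 0.23 and CLDN4 by -0.10. Under si-circ235-2 CLDN4 stood at -0.65 without TMM factors and was not called there (adjusted p = 0.0563, edgeR). Neither ERBB3 nor CLDN4 was called without the first NC library (adjusted p = 0.0544 and 0.166, edgeR), nor was FGFR3 with any library left out (0.0505 to 0.191).

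Of the 14 tested basal genes, 0 were called higher and 1 lower under si-circ235-1, beside 5.88% of all genes. Under si-circ235-2, 7 were called higher and 3 lower (10 of 14 beside 31.4% of all genes, median log2 difference 0.45). The trend removed left 4 higher and 1 lower, with a median of 0.17. S100A2, a calcium-binding protein of basal cells, fell under si-circ235-2 (log2 -1.93, adjusted p = 0.00347, edgeR), and its NC libraries differed widely with 1547 and 741 counts. Under si-circ235-1 S100A2 was at -1.02 without a call (adjusted p = 0.0889, edgeR). COL17A1, the hemidesmosomal collagen, had 9 and 5 counts in NC, 31 and 22 under si-circ235-1 and 31 and 25 under si-circ235-2. Its log2 difference was 1.90 under si-circ235-1 without a call (adjusted p = 0.0814, edgeR), and -0.16 between the siRNAs. Under si-circ235-2 it was called at 1.74 (adjusted p = 0.0460, edgeR), a call kept in 6 of 12 alternatives. That call was lost without either NC library or either si-circ235-2 library. SFN fell (log2 -0.96, adjusted p = 0.0207, edgeR) and was at -0.09 with the trend removed (adjusted p = 0.680, edgeR), and its call was also lost without the first NC library (0.221) or the second si-circ235-2 library (0.0766).

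Of the 4 tested umbrella cell genes, 0 were called under si-circ235-1 and 1 under si-circ235-2, beside 5.88% and 31.4% of all genes. The called gene was TRAK1, higher under si-circ235-2 (log2 0.93, adjusted p = 0.00954, edgeR), a call lost without the first NC library. The surface antigen PSCA, the best expressed per length, was at 0.64 under si-circ235-1 and -0.03 under si-circ235-2 without a call.

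Genes whose level followed a member most closely over the 6 libraries are given as a description, by Pearson's r of log2 CPM. The libraries share 3 conditions and their composition, so high values were available to many genes. PPARG was followed by KLHDC10 (r = 0.993) and the zinc finger gene ZNF462 (r = 0.990). KLHDC10 had 29.4 and 28.2 CPM in NC, 45.8 and 56.7 under si-circ235-1 and 63.2 and 59.1 under si-circ235-2. CD44 was followed by CYB561D1 (r = 0.998) and FP565260.3 (r = 0.995), KLF5 by SH3RF1 (r = 0.995) and ZFP36L1 (r = 0.994), and FOXA1 by HSDL1 (r = 0.987) and ZNF232 (r = 0.982). RXRA went with SCFD2 (r = 0.984) and PSMD2 (r = 0.974), ELF3 with CASP1 (r = 0.984) and ABCF1 (r = 0.960), and GATA3, at its few counts, with PAK1IP1 (r = 0.976) and GNAI1 (r = 0.953).

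**Figure D4:**
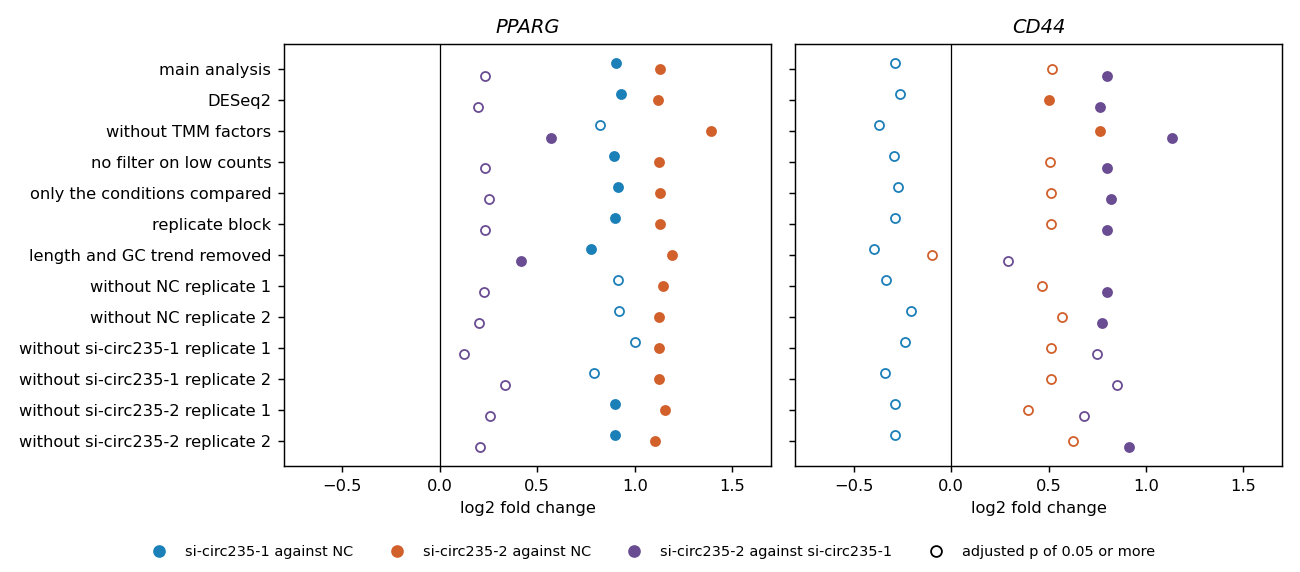
Log2 fold changes of PPARG and CD44 in the main analysis and in each of 12 alternatives, for the 3 comparisons. Filled points have an adjusted p under 0.05. PPARG is above 0 in every row against NC, and CD44 under si-circ235-2 against NC lies near 0 when the trend over transcript length and GC content is removed.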

How the data were processed

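The authors sequenced polyadenylated RNA of T24 cells without strand information and deposited raw read counts, 1 whole number per gene and library. The submitters' processing notes name FastQC, cutadapt, STAR and hg38. Neither versions nor the counter, annotation or filters are stated in the sources read here. GENCODE 29 (GRCh38) held 99.5% of the 58288 identifiers and gave symbols, positions, lengths and 3′ UTRs. Reads shared by overlapping genes may be assigned to either or dropped.

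Conditions and replicates came from the labels, and columns were matched by name. The tests used edgeR 4.0.16 under R 4.3.3 (filterByExpr by condition with a minimum count of 10, TMM, quasi-likelihood tests in 1 fit with 1 mean per condition over 6 libraries, Benjamini-Hochberg adjustment over 14415 genes, threshold 0.05). A second fit compared the 4 si-circ235 libraries with NC. RPKM used the union of exons. The fits were tested on simulated data.

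Members and lists were chosen with earlier results of these data known. The text names all 9 members; from each list, per siRNA, up to 3 called genes of largest absolute fold change averaging 1 CPM or more, and the gene of highest level per length; and the 2 genes of at least 5 CPM most correlated with each tested member. Antisense genes that share exons with a member are named with it, other names are marked as such, and 1 gene that the rule takes is not reported here. The alternatives comprised DESeq2 1.42.0, library sizes without TMM factors, no filter, fits of only the conditions compared, the replicate number as a block, removal of a smooth trend over length and GC content (splines with 5 degrees of freedom), and each library left out. The trend was centred so that each library's median correction was 0, a step settled after an uncentred form had been seen to shift all genes.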

Additional observations from a re-analysis of the deposited data

Results flagged for a closer look

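The effect of the siRNAs differed for CD44 by the test of the difference itself, with si-circ235-2 minus si-circ235-1 at 0.80 on the log2 scale (adjusted p = 0.0111, edgeR), and both si-circ235-2 libraries were above both si-circ235-1 libraries. Among the list genes named in the text and called against NC in opposite directions, the same difference was 2.23 for HAS3 and -2.98 for ANGPTL4. HAS3 and ANGPTL4 were picked by opposite calls in these same libraries, so a large difference follows from the choice and adds no support. Of all genes tested, 39.7% were called between the siRNAs. The differences of CD44, HAS3 and ANGPTL4 kept their direction in all 12 alternatives, and the CD44 call was kept in 8. The siRNAs differ in sequence and, in these libraries, in many other genes, and the cause was not tested.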

How the results depend on the processing

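Over 99 results, 1156 alternative values were computed, of which 983 kept direction and side of the threshold, 121 lost a call, 8 gained one, 19 changed sign and 25 counts moved by over 1.5 times. The number of members called under si-circ235-1 fell from 1 to 0 without TMM factors and ranged from 0 to 1 with a library left out. Under si-circ235-2 it was 2 with DESeq2 and 2 without TMM factors. Between the siRNAs it was 3 without TMM factors, 2 with the length and GC trend removed and 0 to 1 with a library left out. With both siRNAs as 1 group it was 1 with DESeq2 and 1 with the mean of both siRNAs taken in the fit by condition. The list genes called under si-circ235-1, 5 in all, became 11 with DESeq2, 15 without a filter, 14 with only the conditions compared, 16 with the trend removed, and 0 to 12 with a library left out. Those under si-circ235-2, 46, ranged from 15 (without the first NC library) to 48, and those between the siRNAs, 52, from 29 (without the second si-circ235-1 library) to 53.

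Changes of sign concerned values that were not called. Under si-circ235-1, FOXA1 turned to 0.045 with the trend removed and ranged from -0.19 to 0.17 with a library left out, ELF3 turned to 0.0029 with DESeq2 and 0.14 with the trend removed and ranged from -0.18 to 0.12, and KLF5 turned to 0.013 with DESeq2 and ranged from -0.20 to 0.22. Under si-circ235-2, GATA3 ranged from -0.67 (without the first NC library) to 2.91, and CD44 turned to -0.10 with the trend removed (0.39 to 0.63 with a library left out). Between the siRNAs, RXRA turned to 0.26 without TMM factors and ranged from -0.22 to 0.072 with a library left out, and ELF3 turned to 0.086 without TMM factors. With both siRNAs as 1 group, GATA3 ranged from -0.28 (without the first NC library) to 3.32, and CD44 turned to -0.24 with the trend removed and ranged from -0.023 (without the first si-circ235-2 library) to 0.30. The cause of these changes was not tested. Leaving out TMM factors moved the median of all genes to -0.11, 0.25 and 0.37 for si-circ235-1 against NC, si-circ235-2 against NC and between the siRNAs.

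The labels number the replicates in each condition, but the pairing by number was weak, with correlations of deviations of -0.094, 0.149 and 0.139 over 14415 genes and 2 pairs. With the replicate number as a block, PPARG was 0.90 (adjusted p = 0.0287, edgeR) and 1.13 (adjusted p = 0.0047), CD44 between the siRNAs 0.80 (adjusted p = 0.0103), and the block changed no call of a member. Depth limits GATA3, TP63 and GRHL2, and 2 libraries per condition limit all the rest.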
